A study of Mus musculus with 21 samples.

Results

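Cytochromes P450 of families 1 to 3 are the heme enzymes with which the liver oxidizes drugs, dietary chemicals, steroids and fatty acids. Their mRNAs were followed across livers of mice that lacked cystathionine γ-lyase (*Cse*, gene symbol *Cth*), the enzyme that makes cysteine from cystathionine, and of comparison mice labelled WT. The members were the protein-coding genes of the count table whose symbol was Cyp, a family number from 1 to 3, a subfamily letter and a number. There were 58 of them among 46078 gene identifiers, and 45 had 10 or more counts in at least 2 libraries. The 13 others stayed below that minimum, and 44 of the 45 could be tested, *Cyp2s1* being too low.

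Each of the 21 libraries was labelled as a biological replicate and came from the liver of male mice at least 9 weeks old, of the mixed 129/C57BL/6 background given for the knockout line. All animals, controls included, were calorie restricted. The knockout (KO) carried no functional *Cse* allele in any tissue, while the comparison mice, WT in the labels, are described in the study as carriers of a single deleted allele. The diets were a complete amino acid diet (CTR), the same diet without cysteine (noCys) and the same diet without tryptophan (noTrp), the other amino acids being raised in proportion. There were 3 WT and 4 KO libraries on CTR, 4 WT and 3 KO on noCys, and 2 WT and 5 KO on noTrp, and the groups are named by genotype and diet. Cysteine could be neither eaten nor made in KO noCys only, which made KO noCys against WT noCys the central comparison, while removal of tryptophan served as the loss of another amino acid.

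P450 enzymes sit in the endoplasmic reticulum and take electrons from NADPH through P450 reductase. A cysteine of the protein holds the heme iron. Several subfamilies are switched on by receptors for foreign chemicals: AHR acts on Cyp1 genes, CAR on Cyp2b and Cyp2c genes, and PXR on Cyp3a genes. In mouse liver, the pulse pattern of growth hormone also makes some members higher in males and others higher in females. Most of the genes lie in clusters of close copies, which matters for read counting.

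Library totals ran from 8889951 to 27230852 counts. Values below are normalised read counts scaled to a common library total (CPM), fold changes are log2 values with a standard error (SE), and a gene was called when its adjusted p by edgeR's quasi-likelihood test, unless another tool is named, was under 0.05 over all 14370 genes tested. *Cth* lay between 6.34 and 14.99 CPM in the 12 KO libraries and between 108 and 452 CPM in the 9 WT libraries, and no library went against its label. *Xist* reached at most 1.49 CPM and the 4 Y-linked genes checked were counted in every library, as in males. The summed level of 8 hepatocyte markers was 45401 to 74550 CPM in KO noCys and 100834 to 114834 CPM in WT noCys, with 4 of the 8 called lower in KO noCys (*Serpina1c* -1.88, *Alb* -1.15, *Ttr* -1.03, *Fgb* -0.57) and none at 0. The 5 bile duct markers summed to 16.1 to 18.1 CPM in KO noCys and 34.2 to 57.8 CPM in WT noCys, with 2 called lower, and 3 of 8 stellate cell and fibroblast markers were called lower. The 9 pericentral markers summed to 2414 to 2511 against 2569 to 3131 CPM, with 2 called lower, and the 8 periportal markers to 7494 to 10709 against 11548 to 12024 CPM, with 1 called lower. Of all genes tested, 28.2% were called in KO noCys against WT noCys and 13.4% were called lower. The marker counts were not tested against that share. None of the 6 macrophage and leukocyte markers tested, of 7, was called (69.8 to 82.2 against 71.3 to 127 CPM), nor the 2 gut markers and 1 lung marker tested. At most 0.0714 CPM of the 5 kidney markers was counted in any library. In whole liver, fewer cells of a type and less RNA per cell cannot be told apart, and the part of these shifts in the P450 values was not tested.

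A small number of enzymes made up most of the P450 mRNA. In WT CTR liver and per kilobase of exon, *Cyp2e1*, which oxidizes ethanol, acetone and acetaminophen, was the most abundant at 4105 ± 214 CPM per kb (SD, n = 3). It was followed by *Cyp2d9*, a male-biased testosterone 16α-hydroxylase, at 617 ± 11.5 CPM per kb. The next were *Cyp2d26* at 473 ± 26.6, *Cyp2f2*, which activates naphthalene, at 442 ± 15.8, *Cyp2d10* at 436 ± 8.71 and *Cyp1a2*, the constitutive aromatic amine oxidase of hepatocytes, at 405 ± 14.4 CPM per kb. Next came *Cyp2a5* at 378 ± 45.9 CPM per kb. From *Cyp2d26* to *Cyp2a5*, the mean and SD of each gene overlapped those of the next in order, except between *Cyp2d10* and *Cyp1a2*. In all, 16 members were at 100 CPM per kb or more, 9 between 10 and 100, 7 between 1 and 10, and 13 below 1, the last including *Cyp1a1*, *Cyp2a4*, *Cyp2b9* and *Cyp2b10*. *Cyp2e1* alone took 42.9% to 54.6% of the counts of the 45 members in each library.

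**Figure D1:**
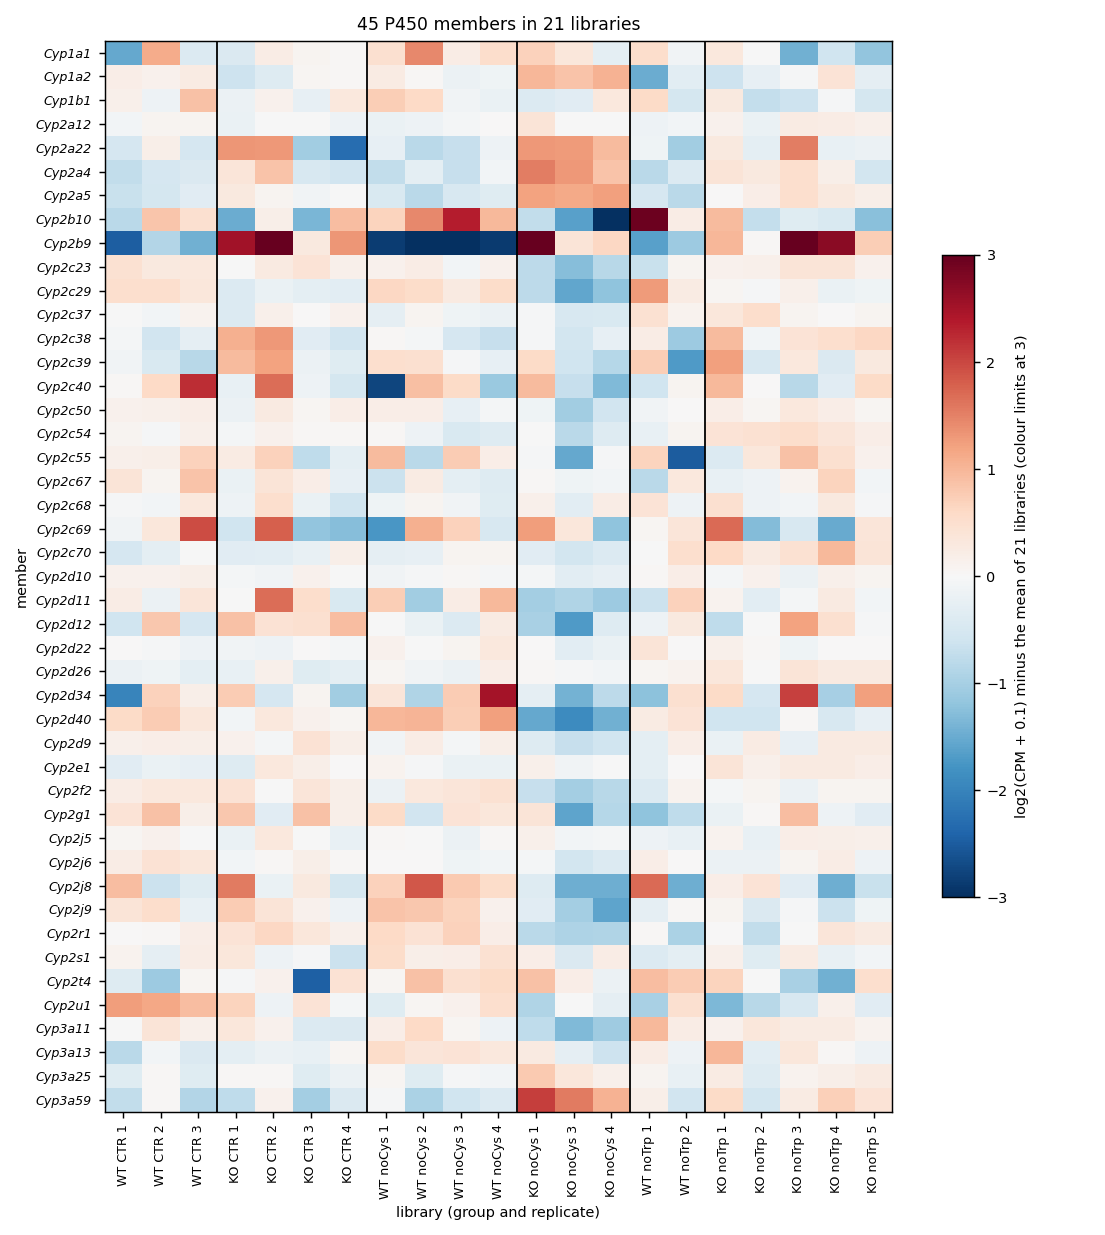
Level of the 45 members in each of the 21 libraries, as log2(CPM + 0.1) minus the mean of the member over all libraries (colour, with limits at -3 and 3), rows by subfamily and columns by group and replicate. The 3 KO noCys columns are red for Cyp1a2, Cyp2a5 and Cyp3a59 and blue for Cyp2c29, Cyp2d40, Cyp2f2 and Cyp3a11, and the Cyp2b9 row is blue in all 9 WT libraries.

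With cysteine neither eaten nor made, some P450 genes were higher and others lower in KO livers than in WT livers. In KO noCys against WT noCys, 21 of the 44 members tested were called, 7 higher and 14 lower. Of all genes tested, 28.2% were called in this comparison, 14.8% higher and 13.4% lower. The median log2 fold change of the members was -0.32, and that of all genes -0.02. Counted without a test, the KO noCys libraries did not overlap those of WT noCys for 19 of the 45 members, 7 higher and 12 lower, against 37.6% of all genes tested (19.4% higher, 18.1% lower). The members called higher were *Cyp2b9*, also higher in KO libraries on the other diets, *Cyp3a59*, *Cyp2a4*, *Cyp2a5*, *Cyp2a22*, *Cyp1a2* and *Cyp3a25*. By subfamily, 3 of 4 Cyp2a genes were called higher, of which *Cyp2a22* lost its call whichever library was left out and *Cyp2a4* shares windows with *Cyp2a5*, which leaves *Cyp2a5*. Of the Cyp2d genes 5 of 8 fell, of the Cyp2c genes 3 of 13 fell and of the Cyp2j genes 2 of 4 fell, with no member of those 3 subfamilies called higher. The calls of *Cyp2d11*, *Cyp2d22* and *Cyp2d34* were each lost in 5 of the 7 fits that left out a library. That of *Cyp2j8* was lost in 3 and that of *Cyp2c50* in 1. With library totals in place of TMM scaling, the median of all genes moved by over 0.1, from -0.02 to 0.20, that of the members was -0.11, and 17 members were called, 8 higher and 9 lower, against 27.4% of all genes called higher and 6.84% lower under that scaling. Of the 5 Cyp2d calls only that of *Cyp2d40* was kept there, and that of *Cyp2c50* was lost.

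**Figure D2:**
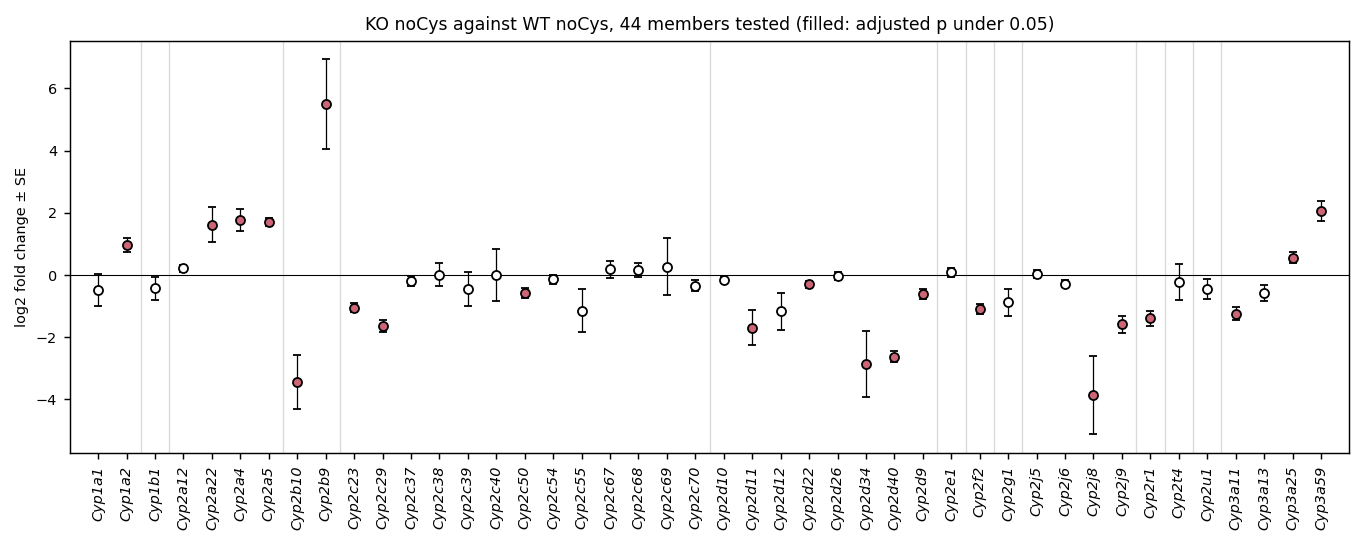
Log2 fold change of each of the 44 members tested, KO noCys against WT noCys, with its SE as the bar, ordered by subfamily; filled points were called. Cyp2b9 stands highest at 5.49 and Cyp2j8 lowest at -3.86, while Cyp2e1 lies at 0.091.

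Of the 4 Cyp2a genes, 3 were called higher and *Cyp2a5* kept its call whichever library was left out. *Cyp2a5* (ENSMUSG00000005547, GRCm38 chromosome 7, 26835305 to 26843548), the coumarin and nicotine oxidase known to be induced in injured liver, stood at 2556, 2439.6 and 2590.0 CPM in KO noCys and 803, 634, 796 and 859 in WT noCys. On CTR the values were 695, 769 and 884 CPM (WT) and 1360.4, 1181, 1038 and 1094 CPM (KO), and on noTrp 787 and 634 (WT) and 1122, 1271, 1574, 1359 and 1256 (KO). Each KO liver lay above each WT liver, whatever the diet, and the 3 KO noCys libraries lay above all the others. Its log2 fold change in KO noCys against WT noCys was 1.71 (SE 0.13, adjusted p = 3.83e-08). *Cyp2a4* (ENSMUSG00000074254, chromosome 7, 26307169 to 26315088), a female-biased steroid 15α-hydroxylase, was far lower, at 3.496, 2.95 and 2.12 CPM in KO noCys and 0.642, 0.901, 0.665 and 1.06 in WT noCys. The control diet gave 0.635, 0.773 and 0.813 CPM (WT) and 1.498, 2.14, 0.787 and 0.731 (KO), and noTrp gave 0.604 and 0.822 (WT) and 1.52, 1.42, 1.65, 1.28 and 0.746 (KO). The KO noCys libraries did not overlap those of WT noCys, but *Cyp2a4* of KO CTR replicate 2 lay level with the lowest of them. Its log2 fold change was 1.77 (SE 0.35, adjusted p = 0.000807). The direction of *Cyp2a4* is uncertain as its own, since 28.1% of the 61-base windows of its transcripts also occur in *Cyp2a5*, and its level was only 0.0594% to 0.181% of that of *Cyp2a5* in each library.

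The remaining Cyp2a genes were *Cyp2a12* and *Cyp2a22*. *Cyp2a12*, a bile acid and steroid 7α-hydroxylase, was not called at 0.22 (SE 0.12, adjusted p = 0.165), except with library totals. *Cyp2a22* (ENSMUSG00000091867, chromosome 7, 26931631 to 26939384) was at 12.1, 11.8 and 9.38 CPM in KO noCys and 4.08, 2.703, 2.94 and 4.33 in WT noCys. With cysteine in the diet, WT livers held 3.39, 5.49 and 3.37 CPM on CTR and 4.43 and 2.32 on noTrp, and KO livers 12.2, 11.99, 2.28 and 0.914 on CTR and 5.97, 3.903, 14.2, 4.15 and 4.25 on noTrp. Its groups did not overlap without cysteine, yet 2 KO CTR libraries and 1 KO noTrp library reached the KO noCys level. Its log2 fold change was 1.62 (SE 0.57, adjusted p = 0.04), and leaving out any of the 7 libraries of the comparison ended the call, with values from 1.53 to 1.74 and adjusted p up to 0.111.

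The sequences upstream of the RefSeq start are shown for the close copies *Cyp2a4* and *Cyp2a5*, and below for neighbours called in opposite directions in KO noCys against WT noCys. They are shown because the start of transcription is where close copies can differ in control. The 250 bases before the start, 5′ to 3′ on the gene's strand (RefSeq, GRCm38.p6), lie at chr7:26306942-26307191 for *Cyp2a4* and chr7:26835089-26835338 for *Cyp2a5*, both on the plus strand. Capitals mark the matches of the motifs searched, here the TATA box TATAAA.
Cyp2a4: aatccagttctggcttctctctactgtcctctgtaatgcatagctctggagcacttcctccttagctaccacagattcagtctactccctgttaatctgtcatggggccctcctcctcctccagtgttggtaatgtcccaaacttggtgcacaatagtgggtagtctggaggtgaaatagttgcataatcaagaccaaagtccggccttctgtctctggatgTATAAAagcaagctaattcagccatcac
Cyp2a5: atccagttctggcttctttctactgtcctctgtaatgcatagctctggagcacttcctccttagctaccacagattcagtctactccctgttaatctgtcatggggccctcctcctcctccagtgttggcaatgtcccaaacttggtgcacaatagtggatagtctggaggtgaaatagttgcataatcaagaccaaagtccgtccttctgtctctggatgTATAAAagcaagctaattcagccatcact
The 2 sequences were identical at 97.6% of aligned bases. They carried TATAAA at positions -28 and -29, respectively, counted back from the start.

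The Cyp2b genes were called in opposite directions in KO noCys against WT noCys, though *Cyp2b9* was higher in KO on every diet. *Cyp2b9* (ENSMUSG00000040660, chromosome 7, 26173411 to 26210661), a member known to be higher in female liver, was at 39.2, 5.19 and 6.17 CPM in KO noCys and at 0.467, 0, 0.285 and 0.453 in WT noCys. The other KO values were 23.1, 77.7, 4.88 and 10.1 CPM (CTR) and 7.98, 4.08, 111, 26.6 and 6.72 CPM (noTrp). In WT it was at 0.635, 2.09 and 1.39 CPM on CTR and 1.21 and 1.79 on noTrp. All 12 KO libraries lay above all 9 WT libraries, and the KO libraries themselves were spread from 4.08 to 110.8 CPM on all 3 diets. The log2 fold change in KO noCys against WT noCys was 5.49 (SE 1.44, adjusted p = 0.00758). Without KO noCys replicate 1 it was 3.99, adjusted p = 0.0574, and limma-voom did not call it. Its other KO against WT values were 4.37 (SE 1.30, adjusted p = 0.208) on CTR and 4.39 (SE 1.48, adjusted p = 0.314) on noTrp, neither called by edgeR with the filter on low counts, while DESeq2 called both and the unfiltered fit that on CTR. The difference that cysteine removal made in KO from that in WT was 1.13 (SE 2.19, adjusted p = 0.807).

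*Cyp2b10* (ENSMUSG00000030483, chromosome 7, 25897620 to 25926624), the classic phenobarbital and CAR target, was low in every liver. It was at 0.789, 0.381 and 0.0643 CPM in KO noCys and 2.28, 3.94, 7.503 and 2.82 in WT noCys, which did not overlap. For CTR the figures in CPM were 0.741, 2.55 and 1.97 (WT) and 0.428, 1.57, 0.472 and 2.74 (KO), and for noTrp 11.3 and 1.64 (WT) and 2.77, 0.798, 1.06, 0.988 and 0.522 (KO). In KO noCys against WT noCys, *Cyp2b10* fell by 3.45 on the log2 scale (SE 0.86, adjusted p = 0.00535), whereas the change from KO CTR, -1.81 (adjusted p = 0.172), was not called and those groups overlapped. *Cyp2b13*, a further female-biased Cyp2b gene of the cluster, had 6 counts over all 21 libraries. Only 7.54% of the windows of *Cyp2b9* and 5.42% of those of *Cyp2b10* were shared with another gene.

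The bases before the starts of *Cyp2b9* (chr7:26173159-26173408, plus strand) and *Cyp2b10* (chr7:25897408-25897657, plus strand) are set side by side. The reason is that these neighbours were called in opposite directions in KO noCys against WT noCys. In KO noCys against KO CTR both values were negative, *Cyp2b9* at -0.88 and *Cyp2b10* at -1.81, and neither was called. Capitals mark AGGTCA, the core bound by nuclear receptors, in *Cyp2b9*, and GCGTG, the core of the AHR element (CACGC on the other strand), in *Cyp2b10*.
Cyp2b9: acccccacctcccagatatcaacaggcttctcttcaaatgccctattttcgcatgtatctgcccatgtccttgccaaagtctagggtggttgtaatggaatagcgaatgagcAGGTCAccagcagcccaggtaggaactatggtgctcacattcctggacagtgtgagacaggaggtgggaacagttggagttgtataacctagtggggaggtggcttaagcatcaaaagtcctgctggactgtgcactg
Cyp2b10: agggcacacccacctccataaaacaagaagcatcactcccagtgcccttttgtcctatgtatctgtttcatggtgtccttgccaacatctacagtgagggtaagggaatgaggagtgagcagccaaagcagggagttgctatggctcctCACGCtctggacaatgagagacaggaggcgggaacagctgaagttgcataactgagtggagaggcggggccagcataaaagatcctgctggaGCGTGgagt
They were identical at 70% of aligned bases. AGGTCA of *Cyp2b9* began at -138, and the GCGTG matches of *Cyp2b10* began at -101 and -9.

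Of the 3 Cyp1 genes, the abundant *Cyp1a2* rose and the inducible forms did not pass the test. *Cyp1a2* (ENSMUSG00000032310, chromosome 9, 57676937 to 57683703) was at 1429, 1296 and 1483 CPM in KO noCys and 846, 738, 634 and 651 in WT noCys. On CTR the values were 816, 787 and 845 CPM (WT) and 468, 543, 743 and 738 CPM (KO), and on noTrp 253 and 577 (WT) and 464, 605, 695, 947 and 596 (KO). The 3 KO noCys libraries were the highest of all 21, while the 4 KO CTR libraries lay below the 3 of WT CTR and the KO noTrp libraries overlapped those of WT noTrp. Its log2 fold change was 0.97 (SE 0.23, adjusted p = 0.00418). *Cyp1a1*, the most strongly AHR-induced P450 and a common readout of that receptor, was at 1.35, 1.05 and 0.643 CPM in KO noCys and 1.17, 2.37, 0.9497 and 1.21 in WT noCys. The control diet gave 0.212, 1.86 and 0.581 CPM (WT) and 0.571, 0.964, 0.866 and 0.823 (KO), and noTrp gave 1.21 and 0.747 (WT) and 1.03, 0.798, 0.235, 0.494 and 0.298 (KO). The groups overlapped and its log2 fold change was -0.48 (SE 0.51, adjusted p = 0.505). *Cyp1b1* was at -0.43 (adjusted p = 0.408).

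In the Cyp3a subfamily the main drug-oxidizing enzyme fell while a pair of its neighbours rose. *Cyp3a11* (ENSMUSG00000056035, chromosome 5, 145854426 to 145879964), the chief PXR target of mouse liver, was at 383, 257 and 306 CPM in KO noCys and 746, 982, 676 and 582 in WT noCys. With cysteine in the diet, WT livers held 642, 851 and 723 CPM on CTR and 1270.0 and 755 on noTrp, and KO livers 815, 711, 484 and 482 on CTR and 703, 812, 761, 768 and 699.8 on noTrp. The 3 KO noCys libraries were the lowest of all 21. *Cyp3a11* fell by 1.24 on the log2 scale (SE 0.22, adjusted p = 0.000295). *Cyp3a59* (ENSMUSG00000061292, chromosome 5, 146079257 to 146113287) was at 114, 80.1 and 56.3 CPM in KO noCys and 26.3, 13.97, 18.05 and 20.5 in WT noCys. For CTR the figures in CPM were 16.2, 27.99 and 14.8 (WT) and 15.98, 29.6, 13.4 and 19.9 (KO), and for noTrp 30.7 and 18.2 (WT) and 40.7, 18.4, 32.04, 44.5 and 35.8 (KO). Here the 3 KO noCys libraries were the highest of all 21, and the log2 fold change was 2.07 (SE 0.32, adjusted p = 8.92e-05).

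*Cyp3a25*, next to *Cyp3a59*, changed less. Without cysteine the KO mean was 933 ± 220.3 CPM (SD, n = 3) and the WT mean 636 ± 80.1 CPM (SD, n = 4), and the log2 fold change was 0.55 (SE 0.17, adjusted p = 0.0212). The call was lost without KO noCys replicate 1 (0.35, adjusted p = 0.152) and without WT noCys replicate 2 (0.47, adjusted p = 0.066). *Cyp3a59* and *Cyp3a25* shared 19.3% and 18.1% of their windows with each other, and how reads with several matches were counted is not stated. *Cyp3a13*, the family member outside the cluster and without shared windows, was at 195, 133 and 105 CPM in KO noCys and 237, 209, 214 and 199.7 in WT noCys. On CTR the values were 91.5, 152 and 119 CPM (WT) and 132, 142, 139 and 169 CPM (KO), and on noTrp 188 and 147 (WT) and 324, 131, 203, 164 and 146 (KO). Without cysteine, the KO libraries of *Cyp3a13* lay below those of WT, but its log2 fold change of -0.57 (SE 0.25, adjusted p = 0.0957) was not called. Leaving out KO noCys replicate 1 brought a call (-0.85, adjusted p = 0.0282), as did limma-voom and a fit of the compared groups.

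The bases before the starts of *Cyp3a59* (chr5:146079008-146079257, plus strand) and *Cyp3a11* (chr5:145879855-145880104, minus strand) are shown for the same reason as the Cyp2b pair. Capitals mark AGGTCA in both genes, read on the other strand as TGACCT, and in *Cyp3a11* also TATAAA and a match to TGATGNAA, the element of C/EBP and ATF factors.
Cyp3a59: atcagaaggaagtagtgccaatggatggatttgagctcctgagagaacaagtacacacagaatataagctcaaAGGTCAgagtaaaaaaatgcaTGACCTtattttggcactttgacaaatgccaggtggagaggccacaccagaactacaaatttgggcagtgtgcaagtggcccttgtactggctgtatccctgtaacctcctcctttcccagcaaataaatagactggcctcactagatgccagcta
Cyp3a11: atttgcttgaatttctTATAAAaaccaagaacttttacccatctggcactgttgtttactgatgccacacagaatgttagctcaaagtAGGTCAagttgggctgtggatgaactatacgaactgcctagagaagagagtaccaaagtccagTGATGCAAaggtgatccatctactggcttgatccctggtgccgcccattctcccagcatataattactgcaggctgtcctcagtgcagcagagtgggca
Only 53.1% of aligned bases were identical. *Cyp3a59* held AGGTCA at -177 and its reverse complement at -156, and *Cyp3a11* held AGGTCA at -162 and TGATGCAA at -99. The RefSeq start of *Cyp3a11* lies inside the GENCODE gene, so the last 110 bases of its window, with TGATGCAA, are within the gene as given above. The windows of *Cyp2a4*, *Cyp2a5* and *Cyp2b10* overlap their genes in the same way by 23, 34 and 38 bases, that of *Cyp3a59* by 1 and that of *Cyp2b9* by 0.

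Motifs were counted on both strands in the 250 bases before the start of all 27025 RefSeq promoters supplied, among which 38 of the 45 members were matched, 7 of them called higher and 11 lower in KO noCys against WT noCys. TATAAA was present in 19 of the 38 members and in 13% of all promoters. AGGTCA was present in 10 of 38 and 13.8% of all, GCGTG in 5 of 38 and 28.2%, and TGATGNAA in 1 of 38 and 3.53%. The core of the NRF2 element, TGACNNNGC, occurred in 0 of 38 members and in 10.1% of all promoters, and the STAT5 site TTCNNNGAA in 0 of 38 and 7.18%. AGGTCA was found in 3 of the 7 members called higher and 3 of the 11 called lower. These are letters in a short window and say nothing of binding.

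**Figure D3:**
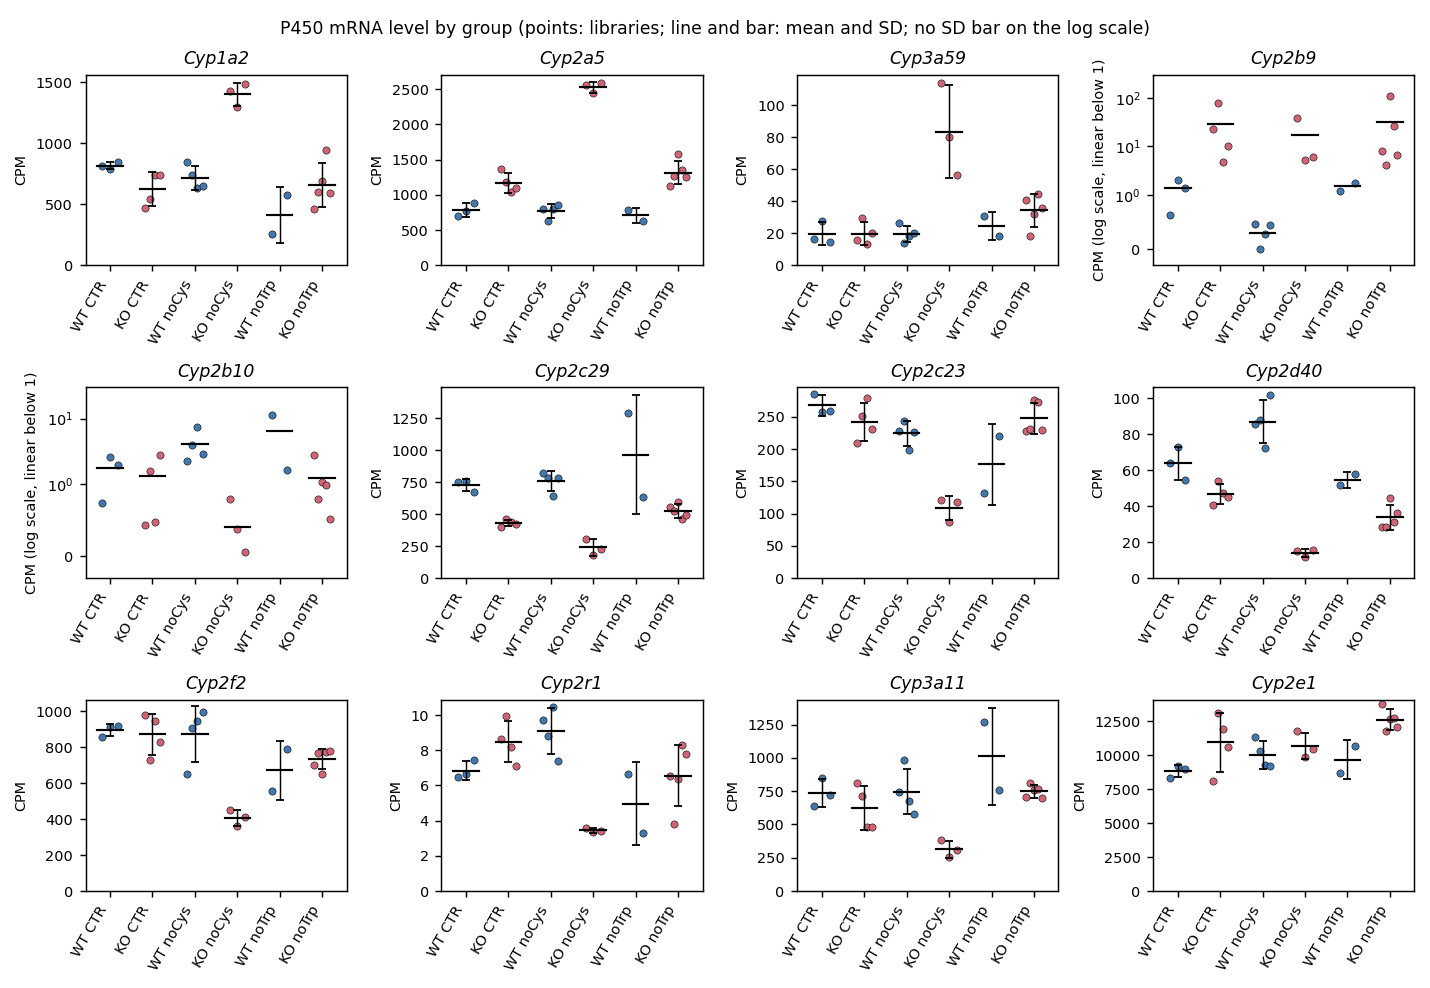
CPM of 12 members in every library by group (points), with the group mean (line) and SD (bar); WT in blue, KO in red, and log axes without SD bars for Cyp2b9 and Cyp2b10. The 3 KO noCys libraries lie above all others for Cyp1a2, Cyp2a5 and Cyp3a59 and below all others for Cyp2c29, Cyp2c23, Cyp2d40, Cyp2f2 and Cyp3a11, and overlap the other groups for Cyp2e1.

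Among the Cyp2c genes, which epoxidize arachidonic acid and oxidize many drugs, 3 of 13 fell and 10 did not pass the test. *Cyp2c29* (ENSMUSG00000003053, chromosome 19, 39269405 to 39330713), an epoxygenase and CAR target, was at 309, 182 and 231 CPM in KO noCys and 823, 785, 644 and 779 in WT noCys. The control diet gave 753, 762 and 675 CPM (WT) and 401, 463, 437 and 426 (KO), and noTrp gave 1291 and 634 (WT) and 559, 524, 595, 463 and 489.8 (KO). Every KO library lay below every WT library, and the KO noCys libraries lay below all others. *Cyp2c29* fell by 1.65 on the log2 scale (SE 0.19, adjusted p = 6.08e-06). *Cyp2c23* (ENSMUSG00000025197, chromosome 19, 44005022 to 44029208), also an arachidonic acid epoxygenase, was at 122, 86.6 and 118 CPM in KO noCys and 228, 245, 198 and 227 in WT noCys. With cysteine in the diet, WT livers held 286, 258 and 259 CPM on CTR and 132 and 221 on noTrp, and KO livers 209, 251, 279 and 231 on CTR and 229, 232, 276, 273 and 229.9 on noTrp. The KO noCys libraries were the lowest of all 21 for *Cyp2c23*, though WT noTrp replicate 1 came close. *Cyp2c23* fell by 1.05 on the log2 scale (SE 0.16, adjusted p = 6.57e-05).

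*Cyp2c50*, of the same kind, had a noCys mean of 335 ± 105 CPM (SD, n = 3) in KO and 495 ± 71.0 CPM (SD, n = 4) in WT and fell by 0.57 on the log2 scale (SE 0.16, adjusted p = 0.0129). Its call rested on KO noCys replicate 3, without which it was -0.36, adjusted p = 0.106, and it was also lost with library totals alone and in a fit of the compared groups. The 10 other Cyp2c genes had log2 fold changes from -1.15 (*Cyp2c55*) to 0.27 (*Cyp2c69*). *Cyp2c40*, *Cyp2c67* and *Cyp2c69* shared 45.3% to 53.2% of their windows with other genes and cannot be told apart with certainty, whereas *Cyp2c23* and *Cyp2c70* shared none.

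No Cyp2d gene rose and 5 of 8 fell. *Cyp2d40* showed the change with the smallest adjusted p of all members. The gene (ENSMUSG00000068083, chromosome 15, 82759833 to 82764183) was at 14.9, 11.6 and 15.7 CPM in KO noCys and 85.7, 87.6, 72.5 and 101 in WT noCys. For CTR the figures in CPM were 63.9, 72.9 and 54.7 (WT) and 40.8, 53.7, 47.2 and 45.2 (KO), and for noTrp 51.6 and 57.8 (WT) and 28.5, 28.5, 44.3, 30.9 and 36.4 (KO). The KO noCys libraries were well below the other 18, and on each diet the KO libraries lay below those of WT. *Cyp2d40* fell by 2.63 on the log2 scale (SE 0.17, adjusted p = 8.73e-09). *Cyp2d9* (ENSMUSG00000068086, chromosome 15, 82433437 to 82456845), the male-biased steroid hydroxylase, was at 1109, 895 and 951 CPM in KO noCys and 1344, 1689, 1395 and 1642 in WT noCys. On CTR the values were 1611, 1672 and 1635 CPM (WT) and 1587, 1382, 1969 and 1642 CPM (KO), and on noTrp 1178 and 1652 (WT) and 1255, 1730.2, 1218, 1757 and 1741 (KO). All 3 KO noCys libraries were below the rest, but by less. *Cyp2d9* fell by 0.62 on the log2 scale (SE 0.16, adjusted p = 0.00644), and with library totals alone the call was lost.

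The other Cyp2d calls were of scarce or small changes. *Cyp2d11* was at 0.338, 0.381 and 0.321 CPM in KO noCys, 1.4, 0.338, 0.9497 and 1.66 in WT noCys. The control diet gave 0.953, 0.696 and 1.05 CPM (WT) and 0.785, 2.75, 1.18 and 0.548 (KO), and noTrp gave 0.469 and 1.34 (WT) and 0.869, 0.621, 0.764, 0.988 and 0.746 (KO). *Cyp2d34* was at 0.226, 0.0477 and 0.129 CPM in KO noCys, 0.408, 0.113, 0.5698 and 2.12 in WT noCys. With cysteine in the diet, WT livers held 0, 0.541 and 0.348 CPM on CTR and 0.0671 and 0.448 on noTrp, and KO livers 0.571, 0.178, 0.315 and 0.0914 on CTR and 0.489, 0.177, 1.53, 0.0988 and 0.821 on noTrp. In both genes the KO noCys and WT noCys libraries overlapped. The log2 fold changes were -1.69 (SE 0.56, adjusted p = 0.0301) for *Cyp2d11* and -2.87 (SE 1.05, adjusted p = 0.0468) for *Cyp2d34*. *Cyp2d22*, related to the human drug-oxidizing CYP2D enzymes, had a noCys mean of 292 ± 35.8 CPM (SD, n = 3) in KO and 358 ± 34.8 CPM (SD, n = 4) in WT and fell by 0.30 (adjusted p = 0.0491). Each of these 3 calls was lost in 5 of the 7 fits that left out a library, with values in those 5 of -1.78 to -1.42 for *Cyp2d11*, -3.28 to -1.65 for *Cyp2d34* and -0.31 to -0.22 for *Cyp2d22*. With library totals none of the 3 was called, *Cyp2d11* (-1.47, adjusted p = 0.0544), *Cyp2d34* (-2.66, adjusted p = 0.0572) and *Cyp2d22* (-0.091, adjusted p = 0.529). The replicate block ended the calls of *Cyp2d11* and *Cyp2d34*, limma-voom that of *Cyp2d34*, and a fit without the filter on low counts or of the compared groups that of *Cyp2d22*. *Cyp2d11* shared 22.5% of its windows with the abundant *Cyp2d10*. *Cyp2d10*, *Cyp2d12* and *Cyp2d26* were not called, at -0.16, -1.17 and -0.037.

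*Cyp2e1* did not pass the test in any comparison. The gene (ENSMUSG00000025479, chromosome 7, 140763739 to 140774987) was at 11763, 9879.8 and 10448 CPM in KO noCys and 11351, 10308, 9274 and 9227 in WT noCys. For CTR the figures in CPM were 8348, 9247 and 8979 (WT) and 8104, 13117, 11981 and 10649 (KO), and for noTrp 8683 and 10702 (WT) and 13781, 11802, 12689.9, 12790.3 and 12131 (KO). The groups overlapped without cysteine, and the log2 fold change was 0.091 (SE 0.14, adjusted p = 0.654). *Cyp2f2* (ENSMUSG00000052974, chromosome 7, 27119909 to 27133660) was at 451, 362 and 411 CPM in KO noCys and 648, 904, 946 and 995 in WT noCys. On CTR the values were 857, 909.7 and 916 CPM (WT) and 979, 729, 946 and 830.0 CPM (KO), and on noTrp 554 and 788 (WT) and 699, 769.7, 649.6, 774 and 777 (KO). The KO noCys libraries were the lowest of all 21, and *Cyp2f2* fell by 1.10 on the log2 scale (SE 0.15, adjusted p = 2.89e-05). It shares 7.91% of its windows with *Gm15883* on the opposite strand, and the strand setting of the counting is not stated.

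*Cyp2r1* (ENSMUSG00000030670, chromosome 7, 114549682 to 114562972), the vitamin D 25-hydroxylase, was at 3.61, 3.34 and 3.41 CPM in KO noCys and 9.74, 8.78, 10.4 and 7.41 in WT noCys. The control diet gave 6.46, 6.65 and 7.43 CPM (WT) and 8.63, 9.96, 8.19 and 7.13 (KO), and noTrp gave 6.64 and 3.29 (WT) and 6.52, 3.81, 6.35, 8.302 and 7.76 (KO). The KO noCys and WT noCys libraries were far apart, while WT noTrp replicate 2 was as low as KO noCys. *Cyp2r1* fell by 1.40 on the log2 scale (SE 0.24, adjusted p = 0.000262). Of the Cyp2j genes, which make epoxides of arachidonic acid, *Cyp2j9* (ENSMUSG00000015224, chromosome 4, 96568429 to 96591578) was at 8.23, 5.05 and 3.41 CPM in KO noCys and 18.96, 18.2, 16.6 and 11.4 in WT noCys. With cysteine in the diet, WT livers held 13.7, 15.1 and 8.94 CPM on CTR and 8.65 and 10.7 on noTrp, and KO livers 17.6, 13.7, 11.3 and 9.32 on CTR and 10.97, 7.72, 10.1, 6.62 and 9.55 on noTrp. Its groups did not overlap without cysteine, and *Cyp2j9* fell by 1.59 on the log2 scale (SE 0.28, adjusted p = 0.000328). *Cyp2j8* was nearly absent, at 0.113, 0 and 0 CPM in KO noCys and 0.3501, 0.901, 0.3799 and 0.302 in WT noCys. For CTR the figures in CPM were 0.424, 0.0773 and 0.116 (WT) and 0.713, 0.143, 0.236 and 0.0914 (KO), and for noTrp 0.805 and 0 (WT) and 0.217, 0.266, 0.118, 0 and 0.0746 (KO). The 3 KO noCys libraries held 1 count of *Cyp2j8* and the 4 WT noCys libraries 24, a ratio per library size of 0.0607 (95% exact interval 0.00148 to 0.372, counting error only). The fitted value, -3.86 (SE 1.27, adjusted p = 0.0281), was not called without WT noCys replicate 2, KO noCys replicate 3 or KO noCys replicate 4, with values from -5.72 to -3.16 over the 7 libraries left out. *Cyp2j5*, the abundant hepatic form, and *Cyp2j6* were at 0.033 and -0.28 and were not called, nor were *Cyp2g1*, *Cyp2t4* and *Cyp2u1* (-0.88, -0.22 and -0.45). Of these, limma-voom called *Cyp2j6* and *Cyp2g1*.

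Genes next to one another did not move as a block. In the chromosome 7 cluster, *Cyp2b9* and *Cyp2a4* were called higher and *Cyp2b10* lower in KO noCys than in WT noCys. Further along, *Cyp2a5* and *Cyp2a22* were called higher and *Cyp2f2* lower. Of these, *Cyp2b9* was higher in KO on every diet, and the direction of *Cyp2a4* is uncertain as its own. *Cyp2a22* lost its call whichever library was left out. On chromosome 5, *Cyp3a11* fell while *Cyp3a25* and *Cyp3a59* rose. In the Cyp2c cluster of chromosome 19, *Cyp2c29* and *Cyp2c50* fell and the 10 other members tested from *Cyp2c55* to *Cyp2c70* were not called, *Cyp2c23* lying apart from it.

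**Figure D4:**
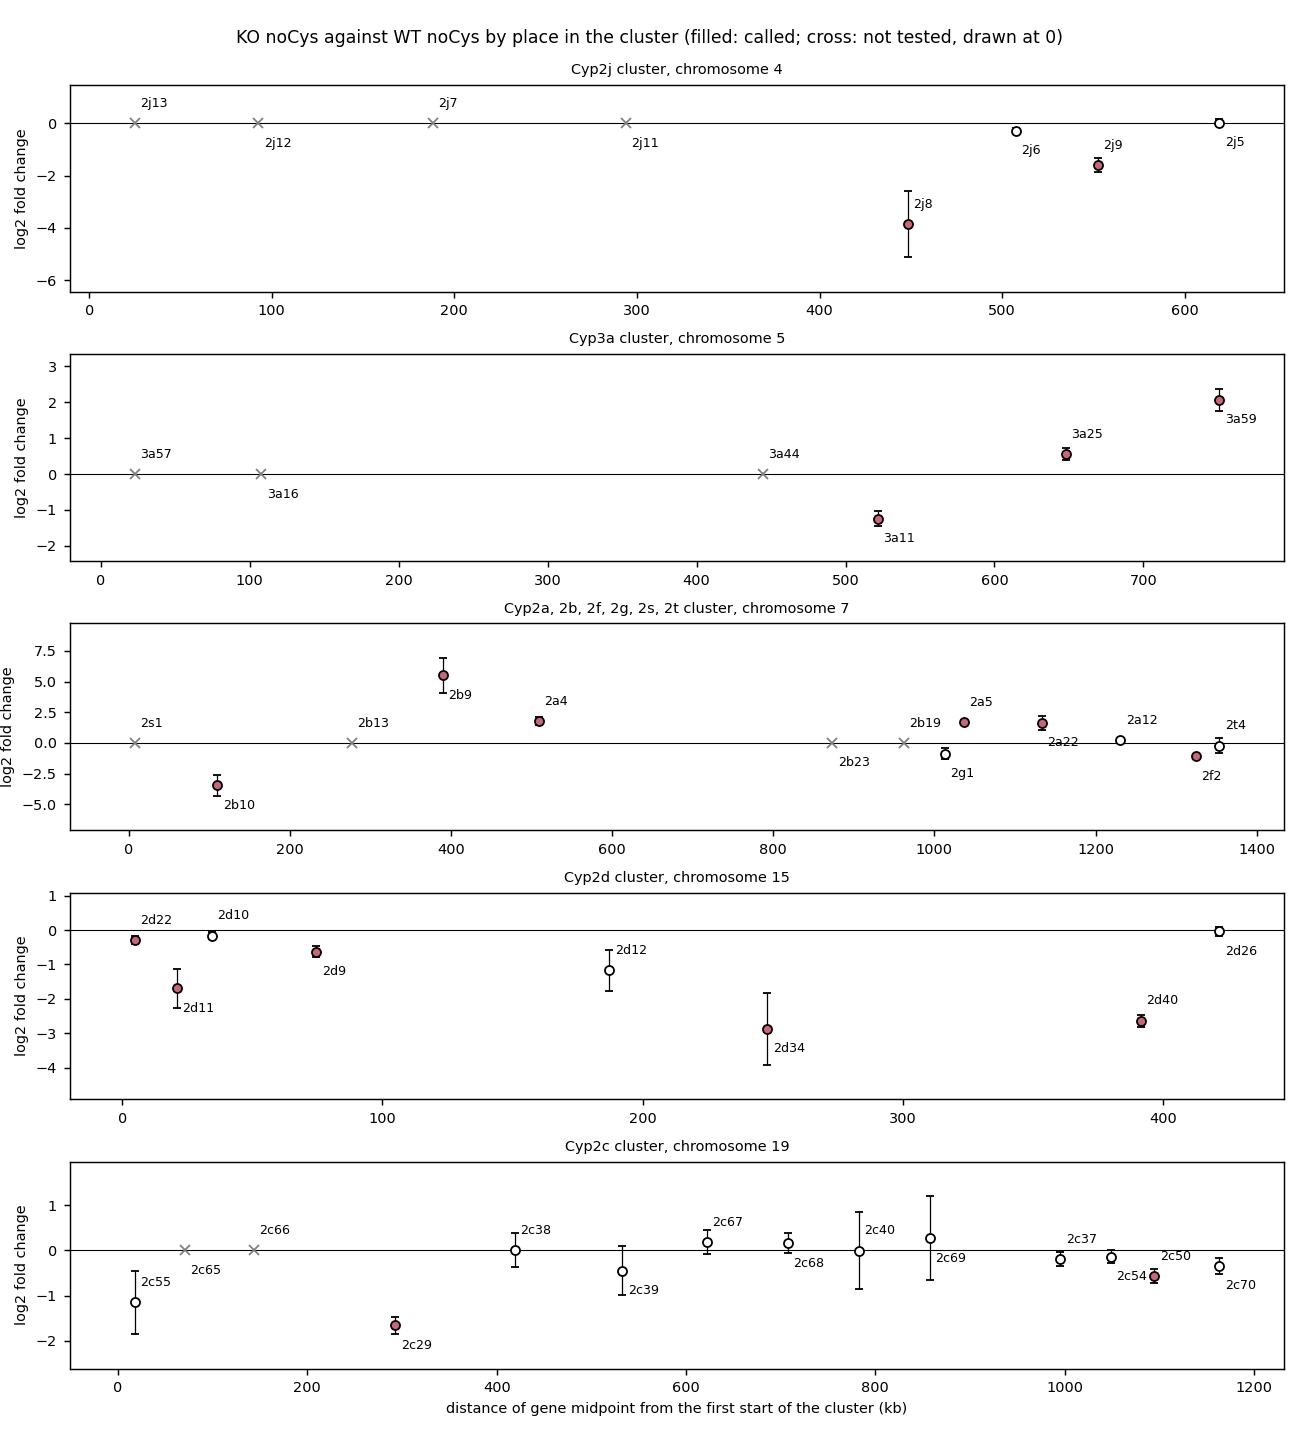
Log2 fold change with SE, KO noCys against WT noCys, against the distance of the gene midpoint from the first start of its cluster in kb, for 5 clusters; filled points were called and crosses, drawn at 0, were not tested. Called genes of opposite sign lie in the clusters on chromosomes 5 and 7, and no called gene lies above 0 in the clusters on chromosomes 4, 15 and 19.

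On the other diets few members or none passed the test between KO and WT. On CTR, 0 of 44 members were called by edgeR, against 0.32% of all genes (0.0696% higher, 0.251% lower), and 9 members had an unadjusted p under 0.05. DESeq2 called 3 members, *Cyp2a5*, *Cyp2b9* and *Cyp2c29*, and limma-voom 2, *Cyp2a5* and *Cyp2c29*. Their edgeR values on CTR were 0.58 (SE 0.14, adjusted p = 0.072) for *Cyp2a5*, 4.37 (SE 1.30, adjusted p = 0.208) for *Cyp2b9* and -0.76 (SE 0.18, adjusted p = 0.0789) for *Cyp2c29*. On noTrp, 1 of 44 was called, against 0.195% of all genes (0.0696% higher, 0.125% lower). This was *Cyp2a5* at 0.89 (SE 0.15, adjusted p = 0.00988), with all 5 KO libraries above both WT libraries. The call was lost without WT noTrp replicate 2 (0.74, adjusted p = 0.0601), by limma-voom, in a fit of the compared groups and with the replicate number as a block. Without that library the lone WT noTrp sample was assumed to vary like the other groups, and 4 members were called. On noTrp, *Cyp2c29* was at -0.87 (adjusted p = 0.062), *Cyp2b9* at 4.39 (adjusted p = 0.314), *Cyp2b10* at -2.34 (adjusted p = 0.194) and *Cyp2d40* at -0.69 (adjusted p = 0.0779), none called by edgeR. DESeq2 called *Cyp2c29*, *Cyp2b9* and *Cyp2d40* there, and edgeR without the filter on low counts *Cyp2c29*, *Cyp2b10* and *Cyp2d40*. Taking the diets together, the libraries of all 12 KO livers lay above those of all 9 WT livers for *Cyp2a5* and *Cyp2b9* and below them for *Cyp2c29*, or 3 of 45 members. The share of all tested genes whose KO and WT libraries did not overlap was 0.278%, 0.132% with KO higher and 0.146% with KO lower.

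**Figure D5:**
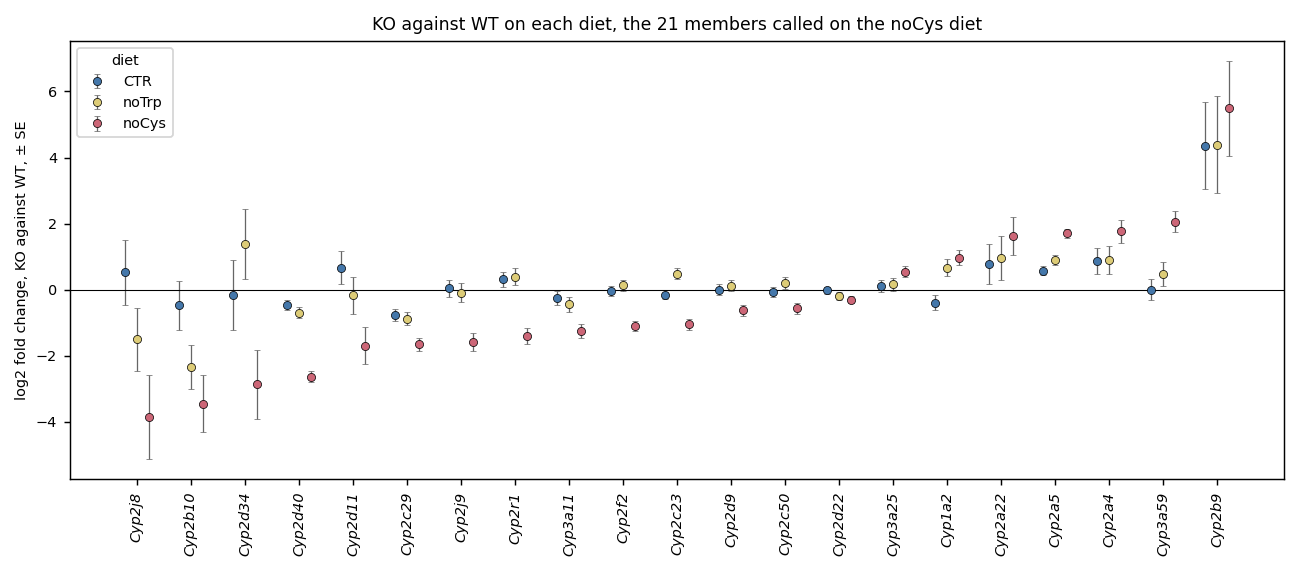
Log2 fold change of KO against WT with SE on the CTR, noTrp and noCys diets for the 21 members called without cysteine, ordered by the noCys value. The values for Cyp2b9 are above 4 on all 3 diets, those for Cyp2a5 and Cyp2c29 keep their sign, and those for Cyp2c23, Cyp2f2, Cyp2r1 and Cyp3a59 are apart from 0 on the noCys diet alone by more than 3 SE.

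Within KO, removal of cysteine lowered more P450 genes than it raised. Of the 44 members, 17 were called in KO noCys against KO CTR, 5 higher and 12 lower, against 20.2% of all genes (10.6% higher, 9.59% lower), with a median of -0.38 for the members and of 0.00 for all genes. With library totals in place of TMM, the medians were -0.27 for the members and 0.13 for all genes. Of the genes called, 73.7% were then higher, against 52.6% with TMM. The comparison shares the KO noCys libraries with that of KO noCys against WT noCys, so the values are set side by side only. The 5 called members with the largest change were *Cyp3a59* at 2.06 (SE 0.31, adjusted p = 0.000143), *Cyp2d11* at -1.98 (SE 0.55, adjusted p = 0.0155), *Cyp2d12* at -1.97 (SE 0.56, adjusted p = 0.0165), *Cyp2d40* at -1.74 (SE 0.17, adjusted p = 1.1e-06) and *Cyp2r1* at -1.31 (SE 0.24, adjusted p = 0.000704). Of these, *Cyp2d11* and *Cyp2d12* were scarce. *Cyp2d11* had 16 counts over the KO noCys libraries and 109 over those of KO CTR, of which 77 were in KO CTR replicate 2. *Cyp2d12* had 10 and 58 counts. *Cyp1a2* was at 1.17 (adjusted p = 0.00149), *Cyp2a5* at 1.11 (adjusted p = 1.11e-05), *Cyp2a4* at 1.06 (adjusted p = 0.0258) and *Cyp3a11* at -0.98 (adjusted p = 0.00294). *Cyp2c29* was at -0.84 (adjusted p = 0.00348), *Cyp2f2* at -1.09 (adjusted p = 5.51e-05) and *Cyp2d9* at -0.74 (adjusted p = 0.00288). *Cyp2b9*, highly unequal among KO livers, was at -0.88 (SE 0.97, adjusted p = 0.568) and not called, and neither were *Cyp2e1* at -0.035, *Cyp1a1* at 0.27 and *Cyp3a13* at -0.010. Without KO noCys replicate 3 the count fell from 17 to 11. Leaving out KO noCys replicate 3 also ended the call of *Cyp2d11* (-2.07, adjusted p = 0.068), as did leaving out KO CTR replicate 2 (-1.25, adjusted p = 0.0879) or KO noCys replicate 4 (-1.92, adjusted p = 0.0597), and that of *Cyp2d12* (-1.48, adjusted p = 0.135). With the replicate number as a block, *Cyp2d11* was not called either (-1.83, adjusted p = 0.0598). *Cyp2a4* was not called without KO CTR replicate 3 or 4 or KO noCys replicate 1 or 3, where it was 0.87 to 1.02. With all libraries kept, its call was also lost without the filter on low counts (1.04, adjusted p = 0.0503) and in a fit of the compared groups (1.03, adjusted p = 0.0908).

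Set against KO mice that lacked tryptophan instead, KO noCys livers had 15 of 44 members called, 4 higher and 11 lower, against 13.9% of all genes (7.17% higher, 6.75% lower), with medians of -0.48 and 0.01. Among the called members, the largest changes were those of *Cyp3a59* at 1.28 (SE 0.29, adjusted p = 0.00656), *Cyp2d40* at -1.27 (SE 0.16, adjusted p = 5.53e-05), *Cyp3a11* at -1.25 (SE 0.21, adjusted p = 0.000648), *Cyp2c23* at -1.19 (SE 0.15, adjusted p = 5.53e-05) and *Cyp2c29* at -1.13 (SE 0.18, adjusted p = 0.000528). *Cyp1a2* was at 1.08 (adjusted p = 0.00289), *Cyp2a5* at 0.94 (adjusted p = 8.72e-05), *Cyp2a4* at 1.08 (adjusted p = 0.0248), *Cyp2f2* at -0.85 (adjusted p = 0.000738) and *Cyp2d9* at -0.65 (adjusted p = 0.00855). *Cyp2a4* lost its call without KO noCys replicate 1 or 3 or KO noTrp replicate 5 (0.93 to 1.04), and *Cyp2d9* without KO noCys replicate 3 (-0.58, adjusted p = 0.0721). The Cyp2c subfamily had 6 of its 13 members called lower here. Of these, *Cyp2c37* lost its call when KO noCys replicate 3 (-0.46, adjusted p = 0.137) or 4 (-0.47, adjusted p = 0.0993) was left out and with the replicate number as a block, and *Cyp2c50* when KO noCys replicate 3 was left out (-0.50, adjusted p = 0.0577).

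Removal of tryptophan in KO called 1 member of 44, against 1.87% of all genes (0.779% higher, 1.09% lower). It was *Cyp2c70*, the enzyme of muricholic acid synthesis in mice, at 351, 279, 319.6, 457 and 300.1 CPM in KO noTrp and 182, 185, 197 and 263 in KO CTR. The groups did not overlap and the log2 fold change was 0.72 (SE 0.16, adjusted p = 0.0184). It was not called without KO CTR replicate 1 (0.67, adjusted p = 0.0847) or KO CTR replicate 3 (0.70, adjusted p = 0.0675), or in a fit of the compared groups. *Cyp3a59* was at 0.78 (adjusted p = 0.157) and *Cyp2d40* at -0.47 (adjusted p = 0.0758) in this comparison by edgeR, while limma-voom called *Cyp3a59* and *Cyp2d26* and DESeq2 called *Cyp2d40* and *Cyp2d26*.

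In WT mice neither depleted diet called a member with edgeR. Without cysteine, 0 of 44 were called against 0.661% of all genes (0.39% higher, 0.271% lower), and 5 members had an unadjusted p under 0.05, while DESeq2 gave 1 call (*Cyp3a13*) and limma-voom 2 (*Cyp3a13* and *Cyp2u1*). *Cyp3a13* was at 0.83 (SE 0.25, adjusted p = 0.131). Without tryptophan, 0 of 44 were called against 3.19% of all genes (1.7% higher, 1.5% lower), and 7 members had an unadjusted p under 0.05. The 3 called by DESeq2 were *Cyp1a2*, *Cyp2c23* and *Cyp2u1*, and limma-voom called 0. *Cyp1a2* was at -0.98 (SE 0.29, adjusted p = 0.0707), with both WT noTrp libraries below all 3 of WT CTR. Without WT noTrp replicate 2, 4 members were called. The WT noTrp group has 2 libraries, which were far apart for *Cyp1a2*, *Cyp2b10*, *Cyp2c29* and *Cyp3a11*.

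Whether cysteine removal acted differently in KO than in WT was tested as a difference of differences. It called 10 of 44 members, 3 higher and 7 lower, against 7.44% of all genes (3.56% higher, 3.88% lower), with a median of -0.28 for the members and 0.00 for all genes. *Cyp3a59* stood at 2.06 (SE 0.45, adjusted p = 0.00919), *Cyp1a2* at 1.36 (SE 0.33, adjusted p = 0.0161) and *Cyp2a5* at 1.13 (SE 0.19, adjusted p = 0.0014). The 7 lower were *Cyp2d40* at -2.18 (SE 0.23, adjusted p = 1.82e-05), *Cyp2r1* at -1.72 (SE 0.33, adjusted p = 0.00383), *Cyp2j9* at -1.63 (SE 0.38, adjusted p = 0.0134), *Cyp2f2* at -1.06 (SE 0.21, adjusted p = 0.00449), *Cyp3a11* at -0.998 (SE 0.30, adjusted p = 0.0455), *Cyp2c23* at -0.90 (SE 0.22, adjusted p = 0.0151) and *Cyp2c29* at -0.90 (SE 0.26, adjusted p = 0.0419). Without KO noCys replicate 3 the count was 6 in place of 10, with *Cyp2j9* (-1.58, adjusted p = 0.0504), *Cyp2c23* (-0.76, adjusted p = 0.0612), *Cyp2c29* (-0.73, adjusted p = 0.141) and *Cyp3a11* (-0.87, adjusted p = 0.144) no longer called. *Cyp2c29* lost its call in 11 of the 14 fits that left out a library (-0.93 to -0.73 in those 11) and *Cyp3a11* in 10 of 14 (-1.12 to -0.84 in those 10). With library totals, *Cyp3a11* (-0.86, adjusted p = 0.0665), *Cyp2c29* (-0.76, adjusted p = 0.0571) and *Cyp2c23* (-0.76, adjusted p = 0.0504) were not called. *Cyp3a11* also lost its call in a fit of the compared groups and with the replicate number as a block. *Cyp2a4* at 0.91, *Cyp2d9* at -0.63, *Cyp2b10* at -2.98 and *Cyp2e1* at -0.22 were not called, though limma-voom called *Cyp2d9*, as did edgeR fitted to the compared groups alone. Of the 45 members, 3 were higher in the KO noCys libraries than in each of the other 18 (*Cyp1a2*, *Cyp2a5* and *Cyp3a59*) and 6 were lower (*Cyp2c23*, *Cyp2c29*, *Cyp2d9*, *Cyp2d40*, *Cyp2f2* and *Cyp3a11*). Of all tested genes, 9.26% stood apart in this way, 5.38% higher and 3.88% lower.

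Some members varied widely among KO livers of 1 diet. In KO CTR, replicates 1 and 2 were higher than replicates 3 and 4 for *Cyp2a22* (12.2, 11.99, 2.28 and 0.914 CPM), *Cyp2c38* (79.2, 94.5, 29.9 and 25.3 CPM), *Cyp2c39* (4.28, 5.14, 1.89 and 1.65 CPM) and *Cyp3a11* (815, 711, 484 and 482 CPM). KO noTrp replicate 3 held the highest level of the group for *Cyp2b9*, *Cyp2a22* and *Cyp2a5*. These members were chosen after their values were seen, and no test was made.

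Lists of known regulation were read as counts in KO noCys against WT noCys, where 28.2% of all genes were called. Of 3 AHR-induced genes, 1 rose (*Cyp1a2*) and the median was -0.43. Of 9 CAR- or PXR-induced genes, 1 rose (*Cyp2a5*) and 4 fell (*Cyp2b10*, *Cyp2c29*, *Cyp2c50* and *Cyp3a11*), with a median of -0.57. Of 9 female-biased genes, 4 could be tested, of which *Cyp2b9* and *Cyp2a4* were called higher and *Cyp2c40* and *Cyp2c69* were not called, with a median of 1.02. Of 5 male-biased genes, *Cyp2d9* fell and the median was -0.02. The lists overlap in members with the families described above and add no independent evidence.

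The partners of P450 enzymes also moved in both directions. Of 14 genes of electron supply and heme synthesis, 4 rose and 2 fell in KO noCys against WT noCys, with a median of 0.01, where 14.8% of all genes were called higher and 13.4% lower. The values of 3 of the 4 are given. Among those that rose was *Uros*, an enzyme of heme synthesis, at 0.77 (SE 0.12, adjusted p = 0.000136). *Pgrmc1*, a heme-binding partner of P450, at 0.43 (SE 0.12, adjusted p = 0.00917) and cytochrome b5 (*Cyb5a*) at 0.33 (SE 0.10, adjusted p = 0.0191) rose as well. *Cyb5r3*, the reductase of cytochrome b5, fell by 1.05 on the log2 scale (SE 0.13, adjusted p = 1.23e-05), and *Cyb5b*, the cytochrome b5 of the outer mitochondrial membrane, fell by 0.67 on the log2 scale (SE 0.13, adjusted p = 0.000753). *Por*, the P450 reductase, was not called in this comparison at 0.16 (adjusted p = 0.54). It was higher on both depleted diets than on CTR in either genotype, at 1.13 (SE 0.19, adjusted p = 0.0152) without cysteine and 1.53 (SE 0.22, adjusted p = 0.00307) without tryptophan in WT, and 0.76 (SE 0.19, adjusted p = 0.00685) and 0.69 (SE 0.17, adjusted p = 0.0347) in KO. Of 22 receptors and factors tested, 0 rose and 2 fell in KO noCys against WT noCys, beside the same shares of all genes, the clock output factors *Hlf* at -0.74 (SE 0.13, adjusted p = 0.000398) and *Tef* at -0.35 (SE 0.10, adjusted p = 0.0163). *Ahr* at -0.27 (adjusted p = 0.34), *Nr1i2* (PXR) at 0.017 (adjusted p = 0.926) and *Nr1i3* (CAR) at -0.32 (adjusted p = 0.427) were not called.

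Taken on library totals, the weight of the families in the mRNA pool did not follow the number of genes called. The 45 members took 1.91% ± 0.118 of all counts in WT CTR (SD, n = 3), 1.96% ± 0.124 in WT noCys (n = 4) and 2.09% ± 0.257 in WT noTrp (n = 2). They took 2.17% ± 0.259 in KO CTR (n = 4), 2.37% ± 0.06502 in KO noCys (n = 3) and 2.53% ± 0.109 in KO noTrp (n = 5). On this scale the KO noCys libraries lay above those of WT noCys, as the lowest of the former was 2.29% and the highest of the latter 2.08%. The Cyp2a genes took 0.338% ± 0.0122 of counts in KO noCys and 0.119% ± 0.0123 in WT noCys, the Cyp1a genes 0.152% ± 0.0121 and 0.0672% ± 0.009302, and the Cyp2c genes 0.165% ± 0.024 and 0.225% ± 0.0206. The Cyp3a share was 0.158% ± 0.0256 against 0.151% ± 0.01203, within its spread. Shares were read per library without a test. They rest on library totals, and the part that the lower hepatocyte marker sum of KO noCys has in them was not tested. The TMM factors were 0.998, 1.14 and 1.12 in KO noCys and 0.909 to 0.962 in WT noCys. Scaled by these factors, as the CPM values are, the shares of the 45 members overlapped between KO noCys and WT noCys.

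Of the 44 members tested, 26 were called by edgeR in at least 1 comparison and 18 in none. The latter were *Cyp1a1*, *Cyp1b1*, *Cyp2a12*, *Cyp2c38*, *Cyp2c39*, *Cyp2c40*, *Cyp2c55*, *Cyp2c67*, *Cyp2c68*, *Cyp2c69*, *Cyp2d10*, *Cyp2d26*, *Cyp2e1*, *Cyp2g1*, *Cyp2j5*, *Cyp2t4*, *Cyp2u1* and *Cyp3a13*. Of the 18, 7 were called in some comparison by another tool, scaling, filter or choice of groups (*Cyp2a12*, *Cyp2c38*, *Cyp2d10*, *Cyp2d26*, *Cyp2g1*, *Cyp2u1* and *Cyp3a13*), and 11 by none of those that kept all libraries. In KO noCys against WT noCys their SE ran up to 0.92, for *Cyp2c69*, and a missing call does not show that a level was the same.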

How the data were processed

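Poly(A) RNA of 21 livers was sequenced by the authors. Per the labels, reads were aligned to GRCm38 with HISAT2 2.1.0 and counted per gene with HTSeq 0.11.0. The deposited table holds raw counts. Its annotation release, the strand setting and the treatment of reads with several matches are not given in the sources used here. Of 46078 identifiers, 45143 were found in GENCODE M21, and the others held 0.0715% of counts. There was 1 column that matched no sample and was not used.

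P450 members with 10 or more counts in at least 2 libraries were kept (45 of 58). Groups came from the labels. Counts were scaled by TMM (factors 0.883 to 1.14) and tested with edgeR 4.0.16 (quasi-likelihood F-test, R 4.3.3) in 1 model of 6 groups over all 21 libraries. filterByExpr (minimum count 10, minimum total 15) left 14370 of 26504 genes with a count, and p-values were adjusted by Benjamini-Hochberg over all of them, with calls under 0.05. SE is the log2 fold change divided by the root of F. The test was checked on simulated counts. P-values measure only the spread between these libraries, and intervals cover counting error only. The alternatives were DESeq2 1.42.0, limma-voom with quality weights (limma 3.58.1), RLE size factors, library totals alone, no filter, the compared groups alone, a block for the replicate number, and leaving out each library. Shared windows of 61 bases were counted over all GENCODE M21 transcripts, and motifs in RefSeq promoters of GRCm38.p6.

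The members, lists and tests were chosen with earlier results of these data known. Values are given for members called without cysteine or in the difference of differences, for up to 5 called members in each other comparison, and for 13 P450 genes of textbook interest. Values in every library are given for the latter and for members called and changed over 2-fold in KO noCys against WT noCys. Some values of genes that are no P450 members are not reported here.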

Additional observations from a re-analysis of the deposited data

Results flagged for a closer look

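In groups of 4 or more libraries, 4 values stood apart from the rest of their group by Dixon's test, of 63 groups tested, where chance gives about 1 in 20. *Cyp2b9* was at 110.8 CPM in KO noTrp replicate 3, against 4.08 to 26.6 CPM in the 4 other libraries of the group. *Cyp2a22* was at 14.2 CPM in the same library, against 3.903 to 5.97 CPM in the 4 others. *Cyp2b10* was at 2.77 CPM in KO noTrp replicate 1, against 0.522 to 1.06 CPM. *Cyp2j8* was at 0.901 CPM in WT noCys replicate 2, against 0.302 to 0.3799 CPM.

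The effect of cysteine removal differed between KO and WT for 10 members by the interaction of the edgeR model. The log2 difference was positive for *Cyp3a59* at 2.06 (adjusted p = 0.00919), *Cyp1a2* at 1.36 (adjusted p = 0.0161) and *Cyp2a5* at 1.13 (adjusted p = 0.0014). It was negative for *Cyp2d40* at -2.18 (adjusted p = 1.82e-05), *Cyp2r1* at -1.72 (adjusted p = 0.00383), *Cyp2j9* at -1.63 (adjusted p = 0.0134), *Cyp2f2* at -1.06 (adjusted p = 0.00449), *Cyp3a11* at -0.998 (adjusted p = 0.0455), *Cyp2c23* at -0.90 (adjusted p = 0.0151) and *Cyp2c29* at -0.90 (adjusted p = 0.0419). Of these, *Cyp3a11*, *Cyp2c23* and *Cyp2c29* were not called with library totals or without KO noCys replicate 3, and *Cyp2j9* was not called without that library. *Cyp2c29* lost its call in 11 and *Cyp3a11* in 10 of the 14 fits that left out a library.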

How the results depend on the processing

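No value of a called member reversed under any alternative, nor did those of the genes of textbook interest tested in KO noCys against WT noCys. Other named values, some of them near 0, were not checked in this way. In KO noCys against WT noCys, 291 of 336 alternative values kept their direction and side of the threshold, 42 lost the call and 3 gained one. The member count there was 21, and 15 to 19 with a library left out. The counts with a library left out were 11 to 17 (KO noCys against KO CTR), 10 to 17 (KO noCys against KO noTrp), 6 to 11 (difference of differences), 0 to 0 (KO against WT on CTR), 1 to 4 (on noTrp), 0 to 2 (KO noTrp against KO CTR), 0 to 0 (WT noCys against WT CTR) and 0 to 4 (WT noTrp against WT CTR).

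Small counts moved with the tool, and the cause was not tested. For KO against WT on CTR, 0 calls became 3 (DESeq2), 2 (limma-voom), 1 (library totals), 3 (no filter) and 1 (compared groups). On noTrp, 1 became 4 (DESeq2), 0 (limma-voom), 4 (no filter) and 0 (compared groups). For KO noTrp against KO CTR, 1 became 3 (DESeq2), 3 (limma-voom) and 0 (compared groups). In WT, 0 calls without cysteine became 1 (DESeq2), 2 (limma-voom), 1 (no filter) and 2 (compared groups), and 0 without tryptophan became 3 (DESeq2) and 2 (no filter). Library totals alone raised the median of all genes to 0.20 (KO noCys against WT noCys), 0.13 (against KO CTR) and 0.16 (difference of differences). With mitochondrial counts out of the denominator, the P450 share was 2.05% in WT CTR, 2.48% in KO noCys and 2.64% in KO noTrp.

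With the replicate number as a block, 18 members were called in KO noCys against WT noCys and 0 in KO against WT on noTrp (1 without it). Deviations of same-numbered libraries correlated at -0.355 to 0.353 over 23 pairs. Differently numbered libraries were not correlated for comparison, so these values cannot decide whether the numbers pair the samples.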

Other observations

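The 13 members below the minimum gave little signal at this depth. *Cyp3a57* had 32 counts over the 21 libraries, *Cyp2b13* 6, *Cyp3a16* and *Cyp3a44* 3 each, *Cyp2b19* 2, and *Cyp2c65* and *Cyp2c66* 1 each. *Cyp2b23*, *Cyp2j7*, *Cyp2j11*, *Cyp2j12*, *Cyp2j13* and *Cyp2w1* had 0 counts. Of these, *Cyp2b13*, *Cyp3a16* and *Cyp3a44* are known to be higher in female mouse liver.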
